A study of Mus musculus with 4 samples.

Results

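The myogenic transcription factors and a small set of muscle structural genes were examined in mouse embryonic fibroblasts (MEFs), cultured mesenchymal cells from embryos. The set comprised the 4 myogenic regulatory factors Myod1, Myf5, Myf6 and Myog, their cofactor Mef2c, the troponin genes Tnni1, Tnnc1 and Tnnt2, the actin gene Actc1 and the intermediate filament gene Des. Every probe set annotated to exactly 1 of these symbols was taken, which gave 14 probe sets for 10 genes, of 12422 probe sets and 8251 named genes in all. The genes were chosen with the difference between the groups already known, chiefly that of Myog and that of Tnni1. Their differences are therefore given as descriptions, with no test of their own.

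All cells were labelled Men1 knockout, on a mixed FVB;129Sv background. They were complemented with Men1 on 2 arrays (titled Men1 MEFs, below Men1) or with vector on 2 arrays (titled Men1-/- MEFs, below vector). Both groups thus lack the endogenous gene, and neither is an unmanipulated wild type. The labels name neither the vector, its promoter nor the number of clones, and do not say whether replicates were separate cultures, so errors and p-values reflect only how far these arrays differ, which may be technical. Cells were seeded at 70% density in medium with 10% serum and harvested after 24 h, which is not a differentiation protocol for muscle.

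The myogenic regulatory factors are basic helix-loop-helix proteins that bind E-boxes together with E proteins. In muscle, Myf5 and Myod1 set the identity of myoblasts, Myog drives their terminal differentiation, and Myf6 acts in later steps. MEF2 proteins cooperate with them, and sarcomere genes such as the troponins and actins are turned on as myotubes form. Fibroblasts normally keep this programme silent, although forced expression of Myod1 can start it in them. Menin, the product of Men1, is a nuclear protein that holds together complexes of the MLL histone methyltransferases.

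Values are MAS5 signals, a linear intensity scaled by the authors to the same mean on each array. Background was taken from 19 bacterial and yeast control probe sets that read low on all arrays, between 0.5 and 27.4, as controls with no RNA added do. The highest of them read 25.9 and 27.4 on the Men1 arrays and 15.9 and 20.0 on the vector arrays, so the ceiling itself was higher with Men1. A signal that did not exceed it is called at control level. Differences are Men1 minus vector in log2(signal + 16), which understates the ratio of dim probe sets. The limma fit over all probe sets gave 0 with an adjusted p under 0.05, or 0% of them, the smallest adjusted p being 1, and 233 (1.88%) at an unadjusted p under 0.05. The single Men1 probe set read 18.8 and 22.5 in Men1 cells and 18.1 and 29.5 in vector cells, with both Men1 signals at control level. Whether it covers the deleted or the reintroduced part of the gene is not given in the sources used here, so it is no check of the labels.

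Among the 14 probe sets, 4 were above the controls on all 4 arrays, those of Myod1, Tnni1 and Tnnt2 and the brighter one of Actc1. A further 8 were at control level on every array, those of Myf5, Myf6 and Tnnc1, the dim one of Actc1 and all 4 of Mef2c. Myog was above on 3 arrays and Des on 2. Over the array as a whole 58.1% of probe sets were above on all 4 arrays and 25.5% on none.

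**Figure D1:**
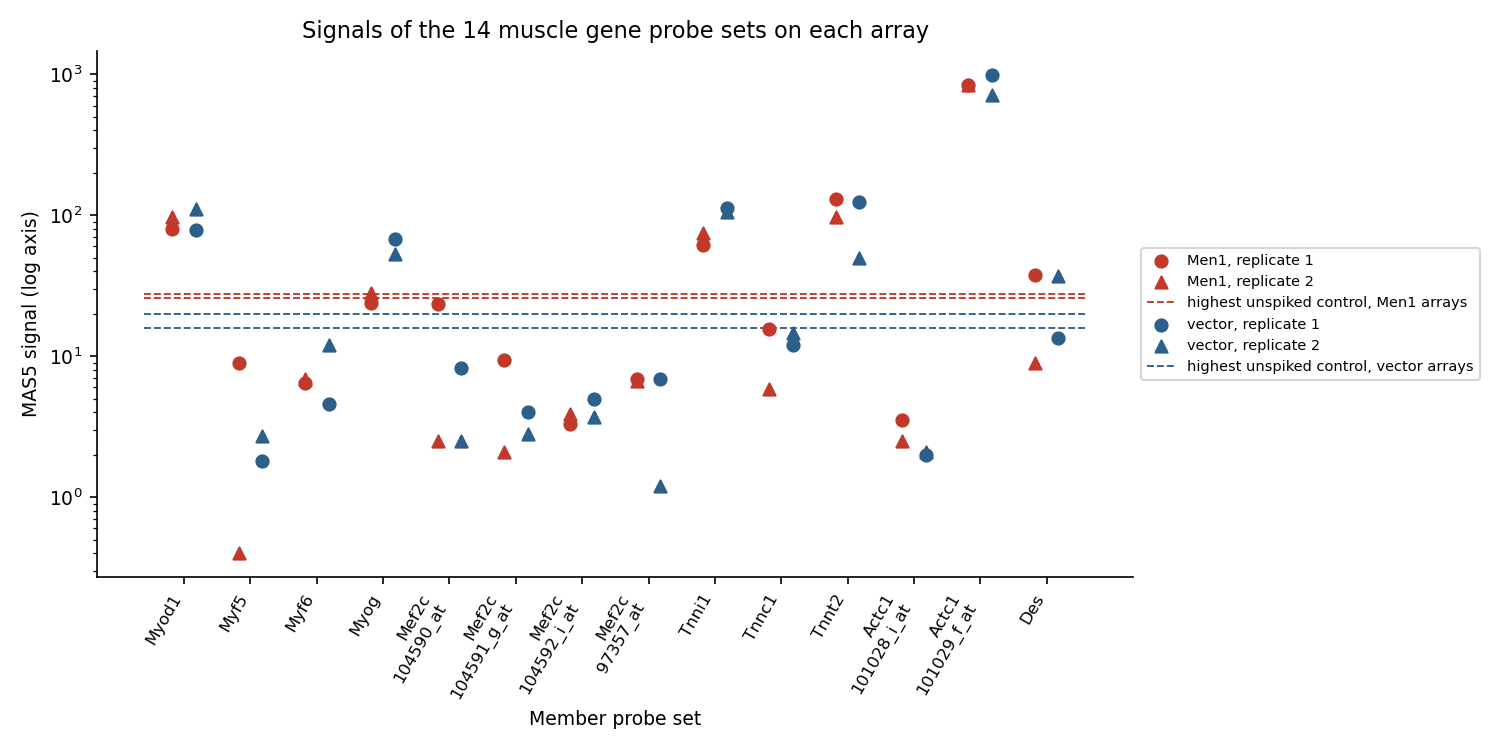
Signal of each muscle gene probe set (horizontal axis) on a logarithmic axis, with Men1 arrays in red and vector arrays in blue, circles for replicate 1 and triangles for replicate 2. Dashed lines mark the highest unspiked control on each array; Myog and Tnni1 have both Men1 points below both vector points, and 8 probe sets lie below the lines of their own arrays throughout.

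Myog, the factor of terminal muscle differentiation, was lower in Men1 cells. It read 23.7 and 28.1 on the Men1 arrays and 68.1 and 53.3 on the vector arrays. Both Men1 signals lay close to the control ceiling, one below and one above it, whereas both vector signals were clear of theirs. The mean signal was 25.9 ± 3.11 in Men1 cells and 60.7 ± 10.5 in vector cells (SD, n = 2 each), a linear ratio of 0.427. The log2 difference was -0.87 with a standard error (SE) of 0.20. Since 1 of the Men1 signals was at control level, the size of the ratio is uncertain. In bulk RNA fewer cells with a transcript and less transcript per cell cannot be told apart.

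Myod1, which specifies myoblasts and acts upstream of Myog in muscle, overlapped between the groups. It read 80.2 and 97.7 in Men1 cells and 78.9 and 109.8 in vector cells. The Men1 signals lay within the range of the vector signals, and the log2 difference was -0.06 (SE 0.23). Myf5 read 9.0 and 0.4 in Men1 cells and 1.8 and 2.7 in vector cells. Myf6 read 6.4 and 6.9 in Men1 cells and 4.6 and 11.9 in vector cells. These factors, the early partner of Myod1 and the late one, were at control level throughout, so no difference could be read for either. Of the 4 myogenic regulatory factors only Myog had groups that did not overlap (25.0%, beside 22.1% of all probe sets). Since Myog was chosen on this contrast, nothing is read from that count.

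Mef2c, a MADS-box factor that cooperates with the myogenic factors, has 4 probe sets, and all were at control level on all 4 arrays. Their signals ranged between 1.2 and 23.5. The highest came from 1 probe set on Men1 replicate 1, while the other Men1 array read 2.5 for it. Its log2 difference was 0.35 (SE 0.41), and those of the other 3 probe sets were -0.05, 0.15 and 0.20.

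Of the troponin genes, Tnni1, the slow skeletal muscle inhibitory troponin, was also lower in Men1 cells. Tnni1 read 61.4 and 74.5 on the Men1 arrays and 111.9 and 105.4 on the vector arrays. All of these signals were above the controls, and the groups were further apart than the arrays within each. Tnni1 averaged 67.95 ± 9.26 in Men1 cells and 108.65 ± 4.60 in vector cells (SD, n = 2 each), a linear ratio of 0.625 and a log2 difference of -0.57 (SE 0.18). Tnnt2, the cardiac and embryonic tropomyosin-binding troponin, ran the other way without separating the groups. It read 131.1 and 96.8 in Men1 cells and 125.0 and 49.6 in vector cells, and its log2 difference of 0.42 (SE 0.41) rested on the low signal of vector replicate 2. Without that array the log2 difference was -0.13, and without vector replicate 1 it was 0.97. Tnnc1, the calcium-binding troponin of slow and cardiac muscle, read 15.7 and 5.8 in Men1 cells and 11.9 and 14.5 in vector cells, all at control level.

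The Actc1 gene encodes cardiac muscle actin, which embryonic skeletal muscle also makes. Its probe sets gave opposite pictures of the level. The one with the suffix f, which Affymetrix uses for probes shared within a sequence family, read 842.0 and 836.7 in Men1 cells and 992.9 and 717.8 in vector cells. The other read 3.5 and 2.5 in Men1 cells and 2.0 and 2.1 in vector cells, at control level on every array. Actin genes are nearly identical in their coding sequence, so the bright signal cannot be assigned to Actc1 alone. The bright probe set differed by -0.01 (SE 0.22) on the log2 scale. The dim one differed by 0.07 (SE 0.17) without overlap of the groups, but below the controls such an order carries no level. Des, the intermediate filament of muscle cells, read 37.5 and 8.9 in Men1 cells and 13.4 and 37.3 in vector cells. For Des, replicate 1 minus replicate 2 was 1.10 in Men1 cells and -0.86 in vector cells on the log2 scale, so the arrays within each group lay further apart than the groups, whose difference was -0.12 (SE 0.48).

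In all, 8 of the 14 probe sets had a negative and 6 a positive log2 difference, with a median of -0.03, while 52.8% of all probe sets were negative and their median was -0.01. The groups did not overlap for 3 of the 14 (21.4%), lower for Myog and Tnni1 and higher for the dim Actc1 probe set, beside 22.1% of all probe sets in both directions together, 11.7% in the lower and 10.4% in the higher direction. Since the genes were chosen on this contrast, nothing is read from that count. Both groups hold an array of each replicate number. Myog differed by -1.08 between the replicate 1 arrays and by -0.65 between the replicate 2 arrays, and Tnni1 by -0.72 and -0.42. For Myod1 these log2 differences were 0.02 and -0.15, for the bright Actc1 probe set -0.23 and 0.22, and for Des 0.86 and -1.10. The sign was the same for both numbers in 4 of the 14 probe sets (28.6%), those of Myog, Tnni1 and Tnnt2 and the dim one of Actc1, and in 42.0% of all probe sets. Where the groups do not overlap, as for Myog, Tnni1 and the dim Actc1 probe set, that sign cannot differ.

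**Figure D2:**
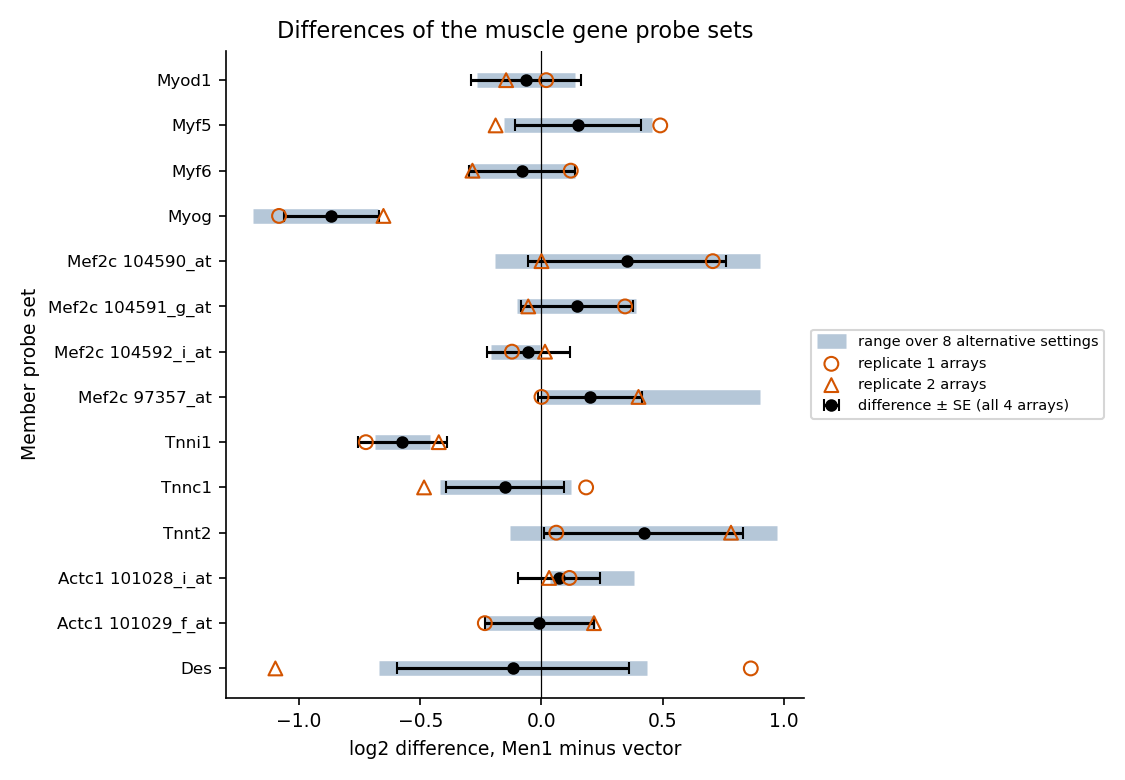
Difference of each muscle gene probe set (vertical axis) in log2(signal + 16), Men1 minus vector, with its SE over all 4 arrays in black and the differences within replicate numbers as open orange symbols. Pale bars span 8 alternative settings. Those of Tnnt2 (-0.13 to 0.97) and Des (-0.67 to 0.43) lie on both sides of 0. Those of Myog (-1.19 to -0.68) and Tnni1 (-0.69 to -0.46) stay below 0. Since their groups do not overlap, leaving out an array or changing the pseudocount could not turn their sign.

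**Figure D3:**
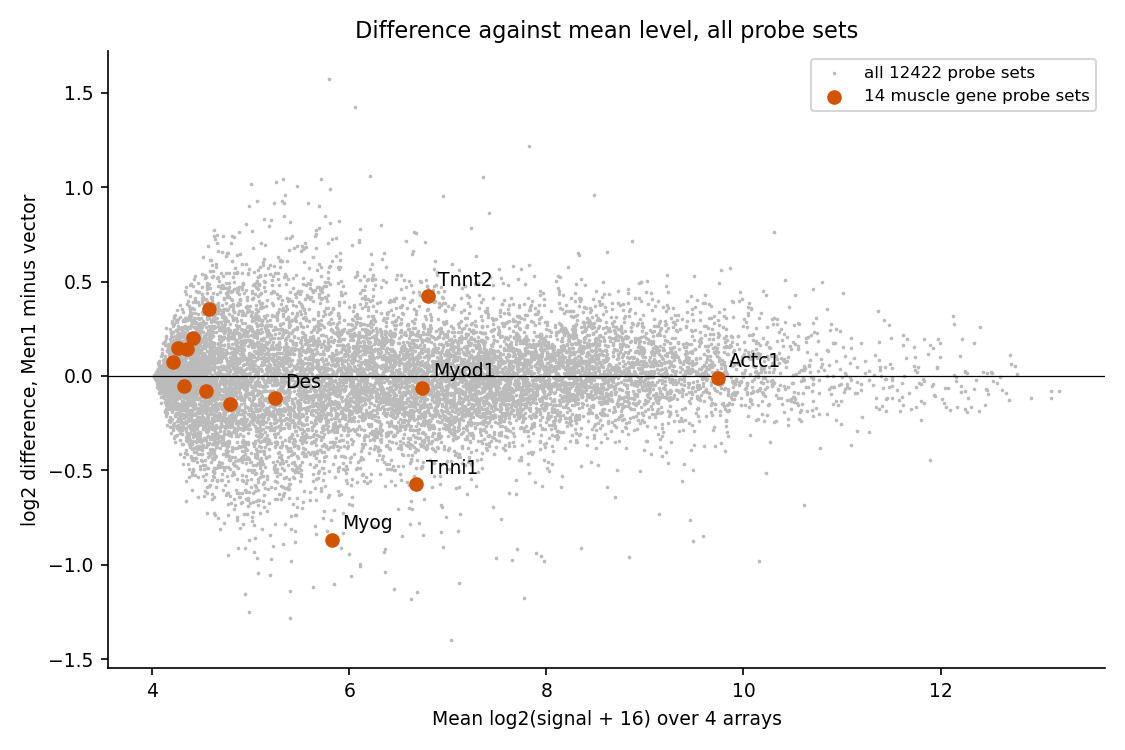
Difference in log2(signal + 16), Men1 minus vector, against the mean level over 4 arrays for all 12422 probe sets (grey), with the 14 muscle gene probe sets in orange and those above the controls on at least 1 array named. Myog (-0.87) and Tnni1 (-0.57), chosen on this contrast, rank 45 and 221 from the most negative of all probe sets, and Myod1 (-0.06) lies near 0.

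The sequence before the start of Myog and of Tnni1 is shown because these are the members that were lower in Men1 cells, and that of Tnnt2 because it lies beside Tnni1 and was not. On chromosome 1 of the mouse, Tnni1 and Tnnt2 are separated by 1 protein-coding gene, and 27 lie between Myog and Tnnt2 in the gene order of GRCm38.p6. Each sequence below, from RefSeq on GRCm38.p6, holds the 250 bases before an annotated start, 5′ to 3′ on the plus strand. Capitals mark E-boxes (CANNTG) and matches to the MEF2 consensus with its last base left free.
Myog, chr1:134289754-134290003: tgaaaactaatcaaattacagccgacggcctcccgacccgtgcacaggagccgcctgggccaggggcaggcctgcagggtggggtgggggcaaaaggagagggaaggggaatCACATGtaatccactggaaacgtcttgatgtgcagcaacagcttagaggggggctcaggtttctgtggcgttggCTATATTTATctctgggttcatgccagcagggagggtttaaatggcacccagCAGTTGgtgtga
Tnni1, chr1:135799171-135799420: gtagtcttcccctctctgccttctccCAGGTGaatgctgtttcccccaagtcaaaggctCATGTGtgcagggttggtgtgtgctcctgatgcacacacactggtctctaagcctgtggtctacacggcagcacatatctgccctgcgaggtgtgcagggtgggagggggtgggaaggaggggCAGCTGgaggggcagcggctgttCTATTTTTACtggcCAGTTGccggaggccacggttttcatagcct
Tnnt2, chr1:135836084-135836333: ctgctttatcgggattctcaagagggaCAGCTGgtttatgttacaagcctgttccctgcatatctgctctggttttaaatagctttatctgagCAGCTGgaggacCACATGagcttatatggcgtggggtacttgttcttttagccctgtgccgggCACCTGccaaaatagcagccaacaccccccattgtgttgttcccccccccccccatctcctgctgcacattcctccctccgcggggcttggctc

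The Myog stretch holds 2 E-boxes, which begin 138 and 12 bases before the start, and between them the letters CTATATTTAT, 64 bases before the start. Tnni1 has 2 annotated starts in this table, and the stretch before the more upstream one holds 4 E-boxes and the letters CTATTTTTAC, 45 bases before the start. That of the more upstream of 2 Tnnt2 starts holds 4 E-boxes and no such match. Both strands were searched, and 8 of the 10 genes, with 12 annotated starts, were in the table. An E-box was found before 9 of the 12, and before 66.2% of all 32851 starts in the table. The full MEF2 consensus was found before 0 of the 12 and before 2.92% of all. With its last base free, a form chosen after the Myog sequence had been seen, it was found before 4 of the 12 and before 7.03% of all. These were the starts of Myog, Tnni1 (both) and Mef2c. The match in Myog was thus fixed by that choice. The stretches before the 2 Tnni1 starts overlap, so the same match, and some of the same E-boxes, are counted for both. No excess is read from these shares. The CArG box, the motif of serum response factor, was found before 1 of the 12, that of Actc1, and before 1.47% of all. Before the more downstream starts there were 2 E-boxes for Tnni1 and 1 for Tnnt2. These are matches of letters only and show neither binding nor use.

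Genes that lie between Myog and Tnnt2 were examined after the order of these genes had been seen. Of the 27 protein-coding genes up to Tnnt2, 14 besides Tnni1 had a named probe set. Among these 14, the log2 difference was negative in 8 and positive in 6, and its median was -0.08. The groups did not overlap for 2 of them (14.3%, beside 22.1% of all probe sets), Adipor1 at -0.07 (SE 0.17) and Elf3 at -0.30 (SE 0.20), both lower. The largest difference in size was that of Nav1 at 0.55 (SE 0.46). Csrp1, a LIM domain protein of smooth muscle, read 867.0 and 683.9 in Men1 cells and 1588.5 and 651.6 in vector cells.

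Further muscle genes were taken from 7 lists, each gene represented by its brightest probe set. The lists were drawn up with earlier results of these data known. Their counts and p-values are therefore descriptions only and no independent comparison with all probe sets. Of 142 listed genes 128 were measured, 73 with a negative and 55 with a positive log2 difference, and 0 were called at an adjusted p under 0.05 in limma. The majority turned to 56 lower and 72 higher without vector replicate 2, and to 62 lower and 66 higher without Men1 replicate 2. At an unadjusted p under 0.05 in limma there were 3, beside 1.88% of all probe sets. Id2 was higher and Mdfi and the Notch ligand Dll1 were lower, and Dll1 is named here after its values were seen. Dll1 read 6.3 and 8.4 in Men1 cells and 20.7 and 14.6 in vector cells, above the controls on 1 array only. Its second probe set differed by -0.07. Among the 128 genes, the groups did not overlap for 27 (21.1%), beside 22.1% of all probe sets. The genes named from each list are its 4 brightest, except in the first list, where all genes above the controls on all arrays are described.

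The first list holds the E proteins that pair with the myogenic factors, the inhibitors of that pairing and the other Mef2 genes. Of its 18 measured genes 12 were higher in Men1 cells and 6 lower, and the median log2 difference was 0.15 beside -0.01 for all probe sets. Without single arrays that median ranged between 0.0058 and 0.23, being 0.0058 without vector replicate 2 and 0.06 without Men1 replicate 1. Id2, a helix-loop-helix protein without a DNA-binding part that sequesters E proteins, read 163.5 and 133.9 in Men1 cells and 102.5 and 99.2 in vector cells. The groups did not overlap for Id2, whose log2 difference was 0.49 (SE 0.19). Id3 read 458.8 and 476.1 in Men1 cells and 456.8 and 338.2 in vector cells. Its groups were barely separated, since vector replicate 1 read nearly as high as Men1 replicate 1. Id1 differed by 0.22 (SE 0.30) with overlap.

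Snai1, a repressor that can occupy E-boxes, read 163.3 and 213.3 in Men1 cells and 133.5 and 139.5 in vector cells, a log2 difference of 0.41 (SE 0.20). Twist1, which blocks myogenic factors in mesenchyme, differed by 0.23 (SE 0.19), and Hes1, a Notch effector, by 0.17 (SE 0.19), neither with overlap. Both were barely separated. The lower Men1 and the higher vector signal were 164.8 and 160.7 for Twist1, and 224.1 and 222.8 for Hes1. Mdfi, the cytoplasmic inhibitor of the MyoD family, ran the other way. Mdfi read 48.1 and 61.2 in Men1 cells and 83.6 and 82.3 in vector cells, a log2 difference of -0.49 (SE 0.19), while its other 2 probe sets were at control level. The inhibitors above the controls were therefore not all on the same side. None of these differences passed over all probe sets.

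The E proteins themselves overlapped between groups. Tcf3 differed by 0.22 (SE 0.20), Tcf12 by 0.23 (SE 0.31) and Tcf4 by 0.13 (SE 0.21). By their brightest probe sets, the other MEF2 genes were above the controls on all arrays, unlike Mef2c. Mef2d read 1409.6 and 860.8 in Men1 cells and 1117.9 and 746.6 in vector cells (log2 difference 0.27, SE 0.34). Mef2a differed by 0.08 (SE 0.28) and Mef2b by -0.16 (SE 0.21). Twist2, Hdac5, which represses MEF2 proteins, and Ebf3 differed by 0.01, -0.02 and -0.02, each with overlap.

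**Figure D4:**
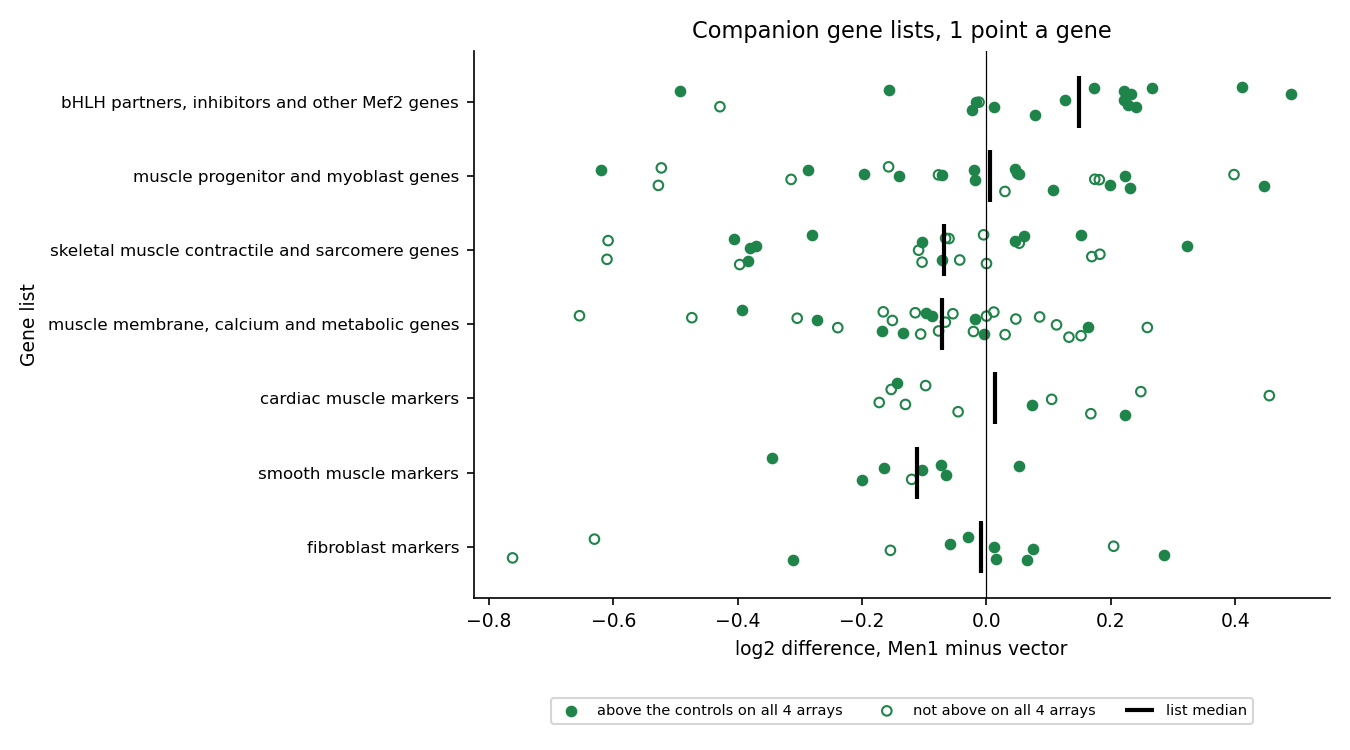
Differences in log2(signal + 16), Men1 minus vector, of the 128 further genes by list, with 1 point a gene, filled where the gene was above the controls on all 4 arrays, and the list median as a black bar. The list of partners, inhibitors and other Mef2 genes has its median at 0.15, and the others lie between -0.11 and 0.01.

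Contractile and sarcomere genes of skeletal muscle were 16 lower and 8 higher of 24 measured, with a median log2 difference of -0.07. Without vector replicate 2 they were 11 lower and 13 higher (median 0.03), and without vector replicate 1 the median was -0.16. Of these 24, 11 were above the controls on all arrays, 8 were at control level on all 4 arrays and 5 were mixed. Among the 8 were the embryonic and perinatal myosin heavy chains Myh3 (1.1 to 2.4) and Myh8 (0.7 to 8.1) and the fast troponin Tnni2 (2.1 to 4.0). Among the 11 were Acta1 (31.9 to 94.6), Ankrd2 (39.9 to 65.6) and Ldb3 (28.6 to 51.9). These examples at and above the control level were chosen after their values were seen. The 4 brightest were Tpm3, a tropomyosin also found outside muscle, at -0.10 (SE 0.34), Cryab, a small heat shock protein, at -0.38 (SE 0.25), Tnnt1, the slow skeletal partner of Tnni1, at 0.06 (SE 0.27), and Myl4, an embryonic myosin light chain, at -0.07 (SE 0.27). Tnnt1 read 65.2 and 69.6 in Men1 cells and 47.9 and 84.0 in vector cells, which overlap, and its second probe set was at control level throughout (8.9 to 10.7). That of Myl4 was also at control level throughout (2.8 to 9.2), and those of Tpm3 and Cryab were above the controls on 1 array each. The summed signal of the list was 919.3 and 893.7 in Men1 cells and 862.2 and 1273.7 in vector cells, which overlap. Its largest part was Tpm3, which read 261.6 and 294.0 in Men1 cells and 212.8 and 418.1 in vector cells.

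Membrane, calcium and metabolic genes of muscle were 20 lower and 10 higher of 30 measured, with a median of -0.07. That direction turned on 1 array, with 11 lower and 19 higher (median 0.12) without vector replicate 2, and 16 lower and 14 higher without Men1 replicate 2. Of the 30, 11 were at control level on all 4 arrays, 9 were above on all 4 and 10 were mixed. Subunits of the acetylcholine receptor and its clustering machinery were found both at and above the control level. Chrna1, the alpha subunit (4.5 to 7.4), and the kinase Musk (1.4 to 5.9) were at control level, as was Dmd, dystrophin (2.7 to 6.3). By contrast, Chrnb1 (34.3 to 51.4), Chrne and the clustering protein Rapsn (49.1 to 91.5) were above throughout. For Chrne this held for its brightest probe set and another, while a further one was at control level (3.5 to 6.9). Apart from Chrne, these genes were chosen after their values were seen. The 4 brightest were Dag1, dystroglycan, at -0.02 (SE 0.20), Pvalb, a calcium buffer, at -0.39 (SE 0.24), Eno3 at -0.0032 (SE 0.58) and Chrne at -0.27 (SE 0.36). Pvalb had a second probe set, at control level, that differed by 0.39. Progenitor and myoblast genes were 12 lower and 12 higher of 24, with a median of 0.0054, and the median was -0.11 without Men1 replicate 1 and 0.14 without Men1 replicate 2. Their 4 brightest, Itgb1 (0.20, SE 0.18), Cav1 (0.05, SE 0.19), Igf1r (0.05, SE 0.22) and Cdkn1a (0.11, SE 0.25), are also widely expressed outside muscle.

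Markers of other cell types were examined beside these results. Cardiac muscle markers were 6 lower and 6 higher of 12 (8 and 4 without vector replicate 1, 4 and 8 without vector replicate 2), with 7 at control level throughout, including Myh6 (0.8 to 5.0) and Nkx2-5 (7.9 to 12.4). The brightest were Nppa (0.22, SE 0.23), Gata4 (-0.14, SE 0.23), Myh7 (0.07, SE 0.38) and Mybpc3 (-0.13, SE 0.20). A second probe set of Myh7 was at control level throughout (7.5 to 15.5). Smooth muscle markers were 7 lower and 1 higher of 8, with a median of -0.11. They were 3 lower and 5 higher both without Men1 replicate 2 (median 0.09) and without vector replicate 1 (0.13), against 8 lower and 0 higher without Men1 replicate 1 (-0.28). Myh11, a defining marker, was at control level. The 4 brightest were all higher on the replicate 1 array of each group. Cnn1, calponin, read 882.1 and 217.0 in Men1 cells and 1547.7 and 199.9 in vector cells, and Tagln, transgelin, read 3115.5 and 1643.7 in Men1 cells and 4186.9 and 1352.7 in vector cells. The others were Acta2, smooth muscle actin (-0.06, SE 0.29), and Tpm1 (-0.10, SE 0.24), while Cnn1 differed by -0.35 (SE 1.12) and Tagln by -0.07 (SE 0.62). The summed signal of the list was 14381 and 10045 in Men1 cells and 17302 and 9967 in vector cells. For Myog and Tnni1, replicate 1 was the higher array in vector cells, as for that sum, and the lower one in Men1 cells, unlike that sum. Whether the smooth muscle level has a part in any of the muscle gene differences was not tested.

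Fibroblast markers were 6 lower and 6 higher of 12, with a median of -0.0088, but 10 lower and 2 higher without vector replicate 1 (median -0.26) and 2 lower and 10 higher without vector replicate 2 (0.21). Of the 12, 8 were above the controls on all arrays, 3 on some and 1 on none. The 4 brightest were Col1a1, the main fibrillar collagen (0.07, SE 0.21), Fbln2 (0.29, SE 0.40), Fn1, fibronectin (-0.03, SE 0.29) and Col1a2 (-0.06, SE 0.20), whose second probe set read 59.6 and 118.8 in Men1 cells and 7.4 and 247.7 in vector cells. Some other markers were dim. Vim read 24.2 to 37.5, Dcn and Col3a1 were above the controls on 3 arrays and Lum on 1, and Thy1 was at control level on all 4. The label thus rests on part of the markers. The list's summed signal was 10262 and 9950 in Men1 cells and 8442 and 10831 in vector cells. Most of that sum was Col1a1, which read 7618.7 and 6175.7 in Men1 cells and 6057.4 and 7091.9 in vector cells.

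The probe sets whose centred profile over the 4 arrays lay nearest to that of Myog, among 7549 of other genes above the controls on at least 2 arrays, were those of Cyp51, Mvk and Cdc42ep4. Their Euclidean distances were 0.0498, 0.0791 and 0.0969 in log2 units. Cyp51 read 49.8 and 56.3 in Men1 cells and 117.9 and 99.3 in vector cells. The Mvk probe set was at control level in Men1 cells, so it passed the filter through the vector arrays alone. The other Mvk probe set differed by -0.35. Since the search was for nearness to Myog, lower signals in Men1 cells were fixed in advance for the probe sets it found. With 4 arrays, a shared profile is a description only.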

How the data were processed

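RNA of mouse embryonic fibroblasts was measured on 4 Affymetrix arrays, 2 with Men1 and 2 with vector. The deposited values are probe set intensity on a linear scale, which the authors computed in Affymetrix Expression Console by MAS5, according to the submitters' processing notes, and no version is stated there. After trimming 2% at each end, the arrays averaged 150.08, 150.08, 150.08 and 150.07, so a change in total RNA cannot be seen. Of 12488 probe sets 66 controls were left out. Gene symbols came from the platform annotation, updated by gene ID for names only, and 10833 probe sets had 1 symbol, 396 several and 1193 none. Signals were analysed as log2(signal + 16) in a two-sided limma 3.58.1 fit (lmFit, eBayes; R 4.3.3). Calls were made at 0.05 after Benjamini-Hochberg adjustment. There were 2 residual and 2.87 prior degrees of freedom and a median SE of 0.22, limited by the number of arrays. An exact permutation test of 2 against 2 arrays cannot go below a p of 0.333, so none was run. Of each of the 7 lists the 4 brightest genes are named (in the list of partners and inhibitors, all above the controls on 4 arrays), and the 3 probe sets nearest to Myog. Members and lists were chosen with earlier results of these data known. The replicate numbers of the titles do not say what they mark, so the block was an alternative. Other settings were pseudocounts of 1 and 32, quantile normalization, a filter on dim probe sets, an intensity trend and leaving out single arrays.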

Additional observations from a re-analysis of the deposited data

How the results depend on the processing

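No probe set passed the adjusted threshold in limma under any setting run, with 121 to 1031 at an unadjusted p under 0.05, the highest without vector replicate 1, where the smallest adjusted p was 0.576. With the unadjusted p as the call 233 passed. With the replicate block the count of adjusted calls was 0 and that at an unadjusted p under 0.05 was 297, and it changed no call. Deviations of same-numbered arrays correlated at r = 0.26 across all probe sets, which for 2 pairs does not establish pairing. Of the 14 muscle gene probe sets, 4 kept their sign in all 8 settings and 10 changed it in at least 1. Those 4 were of Myog, Tnni1, the dim Actc1 and 1 of Mef2c. For Myog, Tnni1 and the dim Actc1 the groups do not overlap. Their sign could therefore not change with the pseudocount, the block or an array left out, and keeping it is no further evidence. Myog ranged between -1.19 (pseudocount 1) and -0.68 (pseudocount 32), and between -1.01 and -0.73 without single arrays. Tnni1 ranged between -0.69 and -0.46. The count of lower probe sets was 6 to 10 without single arrays, against 8 of 14 as reported. It was 5 of the 6 above the controls on at least 2 arrays, where fewer were counted. The median of the 14 was -0.08 to 0.12 without single arrays, and that of all listed genes -0.10 to 0.05. Those fits take the spread from the group that still has 2 arrays and apply it to the single one. The 8 probe sets at control level have no measurable difference at this signal over background.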
